A study of Mus musculus with 9 samples.

Results

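Transcripts of the aminoacyl-tRNA synthetases were compared between hearts of OMA1 knockout and wild-type mice. The 36 genes were chosen by symbol from the 13539 genes of the deposited table: 20 encode cytosolic enzymes, and 16, whose symbols end in 2, encode mitochondrial enzymes. All mice were males of 12 weeks on a C57BL/6JOlaHsd nuclear background, in 3 groups of 3 libraries: OMA1 knockout mice on isoproterenol, wild-type mice on isoproterenol, and OMA1 knockout mice without treatment. Isoproterenol, a β-adrenergic agonist that drives the heart to work harder and remodel, was delivered at 10 mg/kg per day from implanted minipumps for 7 days. The untreated mice are described only as non-treated, so pump surgery and drug cannot be told apart. Hearts of untreated wild-type mice were not analysed here, so whether genotype changed the response to the drug was not tested.

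Each synthetase joins 1 amino acid to its transfer RNAs, the step that fixes the meaning of the genetic code. The heart runs this chemistry in separate places: cytosolic enzymes serve the ribosomes that read nuclear messages, and mitochondrial enzymes, encoded in the nucleus and imported, serve the translation of the respiratory chain subunits that mitochondrial DNA encodes. Kars and Gars supply the enzyme for both compartments, mitochondria make glutaminyl-tRNA by an amidotransferase route in place of a glutaminyl-tRNA synthetase, and a group of cytosolic synthetases is held together in the multi-synthetase complex. Many cytosolic synthetase genes are known targets of ATF4, the transcription factor of the integrated stress response. OMA1, a protease that mitochondrial stress switches on in the inner membrane, can feed such stress into that response.

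Values are the deposited normalized counts, and the 9 libraries held 6.93e+06 to 1.22e+07 reads. Transcripts of the mitochondrial genome took 33.9% to 34.6% of the signal in the untreated knockout group, 36.7% to 37.3% in the treated wild type and 38.2% to 42.5% in the treated knockout. Oma1 stood at 17.7 to 22.0 in the wild-type libraries and at 5.73 to 9.10 in the 6 knockout libraries. The 10 cardiomyocyte markers were detected in every library, as the labelled tissue requires. Differences are on the log2(value + 1) scale with the standard error of a limma fit across all genes, and a gene is called where its Benjamini-Hochberg adjusted p is under 0.05. The p-values measure only the spread between these samples, for which the labels give no animal numbers.

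All 20 cytosolic genes reached the minimum for testing, a value of 10, in all 9 libraries, as did 10 of the 16 mitochondrial genes. Pars2, Sars2 and Wars2, the mitochondrial prolyl, seryl and tryptophanyl enzymes, stayed below 10 in every library and were not tested. Pars2 ranged from 3.03 to 4.92, Sars2 from 5.86 to 9.54 and Wars2 from 4.79 to 7.46. Ears2 reached 10 only in the 3 untreated knockout libraries, Mars2 only in those and 1 treated wild-type library, and Nars2 in none of the treated knockout libraries. These 3 genes therefore entered the fit through the groups in which they were high, and for that reason counts are also given from a fit of all 13539 genes with no minimum.

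Per kilobase of transcript, the mean level over the 3 groups was highest for Kars, the lysyl enzyme of both compartments, at 31.0, and for Lars2, the mitochondrial leucyl enzyme, also at 31.0. Dars, the cytosolic aspartyl enzyme, followed at 24.6 and Gars, the glycyl enzyme of both compartments, at 22.7. Mars2, the mitochondrial methionyl enzyme, was lowest at 0.908, over an annotated transcript of 11294 bases. The median per-kilobase level was 12.6 for the cytosolic class and 6.32 for the mitochondrial class, with ranges of 4.53 to 31.0 and 0.908 to 31.0.

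Promoter sequences are shown here because the classes differed in how many windows hold the core of the ATF4 response element. RefSeq windows on GRCm38.p6, from 250 bases before to 50 bases after the start site, were found for 27 members, 13 cytosolic and 14 mitochondrial. The core TGATGNAA, searched on both strands, occurred in 5 of the 13 cytosolic windows (38.5%) and in 0 of the 15 mitochondrial windows, against 3.97% of 32851 windows of all genes. For each of the 5 genes the match nearest the start site, within 30 bases of it, is printed 5′ to 3′ along the gene's strand as a stretch of 30 bases, with the core in capitals (the core lies on the opposite strand in all but Yars, and is printed there as its complement).
Aars, chr8:111033840-111033869 (+): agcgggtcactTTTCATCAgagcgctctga
Gars, chr6:55037960-55037989 (+): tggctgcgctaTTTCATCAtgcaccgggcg
Iars, chr13:49682126-49682155 (+): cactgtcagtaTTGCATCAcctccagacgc
Tars, chr15:11399655-11399684 (-): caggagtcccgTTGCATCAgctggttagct
Yars, chr4:129189895-129189924 (+): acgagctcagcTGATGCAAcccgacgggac
Other motifs parted the classes less. The E-box CACGTG was in 4 of 13 cytosolic and 1 of 15 mitochondrial windows (7.15% of all windows), and the ETS motif CCGGAAG in 5 of 13 and 4 of 15 (8.86% of all), among them that of Mars2. The NRF1 motif was in 0 windows of either class (0.971% of all). A match describes letters in a window and shows no binding.

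The comparison of treated with untreated knockout hearts asks how hearts without OMA1 change under adrenergic load. The mitochondrial synthetases that passed the threshold all fell: 6 of the 13 tested were lower, namely Mars2, Ears2, Fars2, Iars2, Nars2 and Hars2, and 0 were higher. Of all 8543 genes tested, 51.4% were called in this comparison, 27.4% lower and 23.9% higher. With no minimum, the same 6 genes were called among all 16 members, and 20.3% of all genes were lower. The median log2 difference of all 16 in that fit was -0.22, beside 0.02 over all genes. Over the 13 tested it was -0.28, beside -0.02 over all tested genes. The groups did not overlap for 7 of the 13, all lower (33.4% of all genes lower and 29.2% higher).

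Mars2 (ENSMUSG00000046994, chromosome 1, 55237177 to 55248470), whose enzyme charges the methionine tRNA of mitochondria, stood at 14.3, 15.5 and 13.5 in untreated knockout hearts and at 7.25, 6.98 and 6.98 in treated knockout hearts. Treated wild-type hearts held 10.1, 7.96 and 9.71, between the knockout groups and overlapping neither. Mars2 fell in treated against untreated knockout hearts by a log2 difference of -0.93 ± 0.12 (limma, adjusted p = 4.4e-05), the furthest of any member, on 67 to 126 reads per library.

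Iars2 (ENSMUSG00000026618, chromosome 1, 185284726 to 185329396), the mitochondrial isoleucyl enzyme, is among the most abundant members and rests on 789 to 1162 reads per library. It stood at 117, 121 and 120 in untreated knockout hearts and at 93.8, 82.2 and 91.3 in treated knockout hearts. The groups did not overlap, and treated wild-type hearts lay between them at 107, 109 and 102. Iars2 fell between the knockout groups by -0.42 ± 0.07 (adjusted p = 0.00028). The 3′ end of its transcript shares 2034 bases with Rab3gap2 on the opposite strand, and whether reads were counted by strand is not given in the sources used here. Rab3gap2 differed the other way, by 0.28 ± 0.09 (adjusted p = 0.025).

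Ears2 (chromosome 7, 122037213 to 122067263), the mitochondrial glutamyl enzyme, also loads the glutamine tRNA with glutamate for the amidotransferase to convert. Its values were 10.6, 14.0 and 11.6 in untreated and 9.43, 7.50 and 8.03 in treated knockout hearts, with no overlap, and it fell by -0.49 ± 0.14 (adjusted p = 0.0096). Fars2 (chromosome 13, 36117412 to 36726280), a single-chain phenylalanyl enzyme unlike its cytosolic counterpart, read 47.6, 47.0 and 40.9 against 40.1, 27.0 and 33.6. The groups lay just apart, and Fars2 fell by -0.43 ± 0.12 (adjusted p = 0.01). On the opposite strand its exons share 501 bases with Nrn1 and 115 with Lyrm4, and whether reads were counted by strand is not given. Nrn1 differed by -0.18 ± 0.16 and did not pass (adjusted p = 0.35).

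Hars2, the mitochondrial histidyl enzyme, stood at 25.5, 24.1 and 25.1 in untreated and 20.9, 16.6 and 21.7 in treated knockout hearts, without overlap. It fell by -0.33 ± 0.10 (adjusted p = 0.013), but the adjusted p was 0.059 without treated knockout replicate 2, the lowest library. Nars2, the mitochondrial asparaginyl enzyme, read 15.8, 11.9 and 9.67 against 9.22, 8.44 and 9.98, so the groups overlapped. Its difference of -0.38 ± 0.15 (adjusted p = 0.045) was the least secure: the call was lost when any of 7 of the 9 libraries was left out, with an adjusted p of 0.23 without untreated knockout replicate 1. The calls of Mars2, Iars2 and Fars2 held without each of the 9 libraries. Ears2 entered only the 6 fits that left out a treated library, and its call held in those. Without an untreated knockout library it was below the minimum, so how far its call rests on 1 of those libraries was not tested. On the opposite strand, Nars2 shares 284 exon bases with C230038L03Rik, Hars2 195 with Hars and Ears2 89 with Ubfd1. Whether reads were counted by strand is not given.

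The 7 other tested mitochondrial genes did not pass. Vars2, the valyl enzyme, and Tars2, the threonyl enzyme, still had groups that did not overlap, with differences of -0.23 ± 0.11 (adjusted p = 0.091) and -0.15 ± 0.09 (adjusted p = 0.19). Aars2, the alanyl enzyme whose loss in people is known to cause a childhood cardiomyopathy, read 22.7, 27.5 and 20.3 in untreated and 20.4, 18.1 and 18.7 in treated knockout hearts. Its difference was -0.28 ± 0.12 (adjusted p = 0.075). Rars2, the arginyl enzyme, had the only estimate above 0, at 0.17 ± 0.13 (adjusted p = 0.28). Yars2 and Cars2, the tyrosyl and cysteinyl enzymes, lay at -0.19 and -0.14.

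Lars2 varied more within the untreated knockout group, and within the treated knockout group, than any other tested member, though not within the treated wild-type group. It stood at 92.2, 134 and 169 in untreated knockout, 118, 137 and 83.9 in treated knockout and 121, 126 and 106 in treated wild-type hearts, a coefficient of variation of 29.1% in the untreated group on 763 to 1319 reads per library. Its difference between the knockout groups was -0.20 ± 0.19, with a 95% interval of -0.61 to 0.21.

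**Figure D1:**
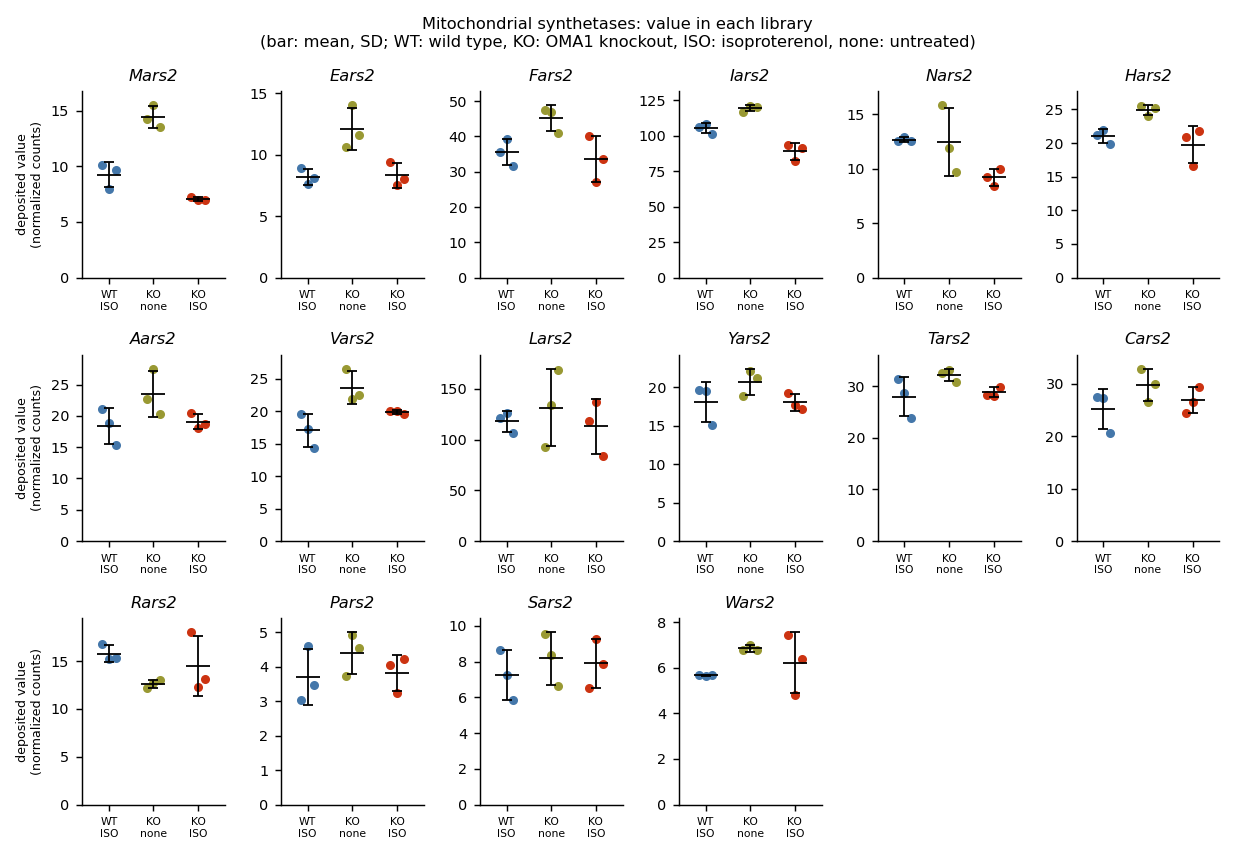
Deposited normalized count of each of the 16 mitochondrial synthetases (vertical axes, starting at 0) in each library (points) of the 3 groups, with group mean and SD as bars; genes are ordered by their log2 difference between the knockout groups, and the 3 untested genes come last. Mars2 lies at 13.5 to 15.5 in untreated knockout hearts (KO, none) and at 6.98 to 7.25 in treated ones (KO, ISO), while the untreated Lars2 values spread from 92.2 to 169.

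In the same comparison the cytosolic synthetases were called in both directions. Aars, Cars, Sars and Yars rose, Dars, Lars and Qars fell, and 13 of the 20 did not pass, beside 51.4% of all genes called (23.9% higher, 27.4% lower). The class median was 0.01. They were also read by membership of the multi-synthetase complex, whose 8 synthetases are Dars, Eprs, Iars, Kars, Lars, Mars, Qars and Rars. Of these 8, 3 fell and 0 rose, with a median difference of -0.15. Of the 12 outside the complex 4 rose and 0 fell, with a median of 0.10. Over all genes 27.4% were lower and 23.9% higher, and whether the subclasses differ was not tested.

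Aars (ENSMUSG00000031960, chromosome 8, 111033144 to 111057664), the alanyl enzyme and one of the genes whose ATF4 core is shown above, stood at 50.7, 47.3 and 51.8 in untreated and 59.6, 62.5 and 57.6 in treated knockout hearts. All 3 treated libraries lay above the untreated ones, and Aars rose by 0.26 ± 0.08 (adjusted p = 0.013). The 3′ end of its transcript shares 1326 bases with Exosc6 on the same strand, a gene not analysed here. Yars (chromosome 4, 129189760 to 129219607), the tyrosyl enzyme and the other called gene with a core, read 24.3, 22.8 and 23.2 against 28.2, 28.0 and 26.8 and rose by 0.23 ± 0.08 (adjusted p = 0.023). Gars, Iars and Tars, whose windows also hold the core, did not pass, at 0.00 ± 0.08, -0.12 ± 0.08 and 0.09 ± 0.10.

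Cars (chromosome 7, 143557230 to 143600090), the cysteinyl enzyme, stood at 14.3, 11.3 and 13.1 in untreated and 16.3, 17.6 and 16.7 in treated knockout hearts, the largest rise of the class at 0.37 ± 0.13 (adjusted p = 0.026). On the opposite strand its exons share 211 bases with Gm15580, a pseudogene not analysed here. Sars (chromosome 3, 108424865 to 108445209), the seryl enzyme, read 41.1, 36.2 and 42.3 against 49.4, 50.8 and 44.2 and rose by 0.27 ± 0.09 (adjusted p = 0.025). The groups did not overlap for either gene. Without untreated knockout replicate 2, none of the 4 rises was called, with adjusted p-values of 0.063 for Aars, 0.11 for Cars, 0.12 for Sars and 0.075 for Yars. Without treated knockout replicate 2, only 1 of them, Aars, was called, and the class count went from 7 to 3 in both cases. Over all genes, 20.1% were higher and 22.2% lower without the untreated library. Without the treated library 19.7% were higher and 23.2% lower.

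Dars (ENSMUSG00000026356, chromosome 1, 128363707 to 128417368), the aspartyl enzyme of the complex, stood at 63.5, 56.7 and 55.7 in untreated and 46.9, 41.6 and 46.0 in treated knockout hearts. It fell by -0.38 ± 0.08 (adjusted p = 0.0022), the largest fall of the class, and the groups did not overlap. Lars, the leucyl enzyme of the complex, read 46.1, 46.1 and 43.1 against 40.8, 34.3 and 36.3 and fell by -0.28 ± 0.08 (adjusted p = 0.0097). Qars (chromosome 9, 108507706 to 108515941), the glutaminyl enzyme, read 57.3, 49.9 and 51.0 against 45.9, 41.5 and 45.0 and fell by -0.25 ± 0.08 (adjusted p = 0.024). The calls of Dars and Lars held without each of the 9 libraries, whereas Qars was not called when untreated replicate 1 or treated replicate 2 was left out (adjusted p = 0.11 and 0.078).

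The scaling of the libraries bears on these counts, because transcripts of the mitochondrial genome took a larger share of the signal in treated knockout hearts. Scaled on nuclear genes alone, the median of all genes moved from -0.02 to 0.08 and the calls over all genes to 33.2% higher and 19.5% lower. Under that scaling 8 cytosolic genes were higher and 1 was lower, and 4 mitochondrial genes were lower and 0 higher. Lars, Qars, Hars2 and Nars2 were not called under it, and no called gene changed direction.

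**Figure D2:**
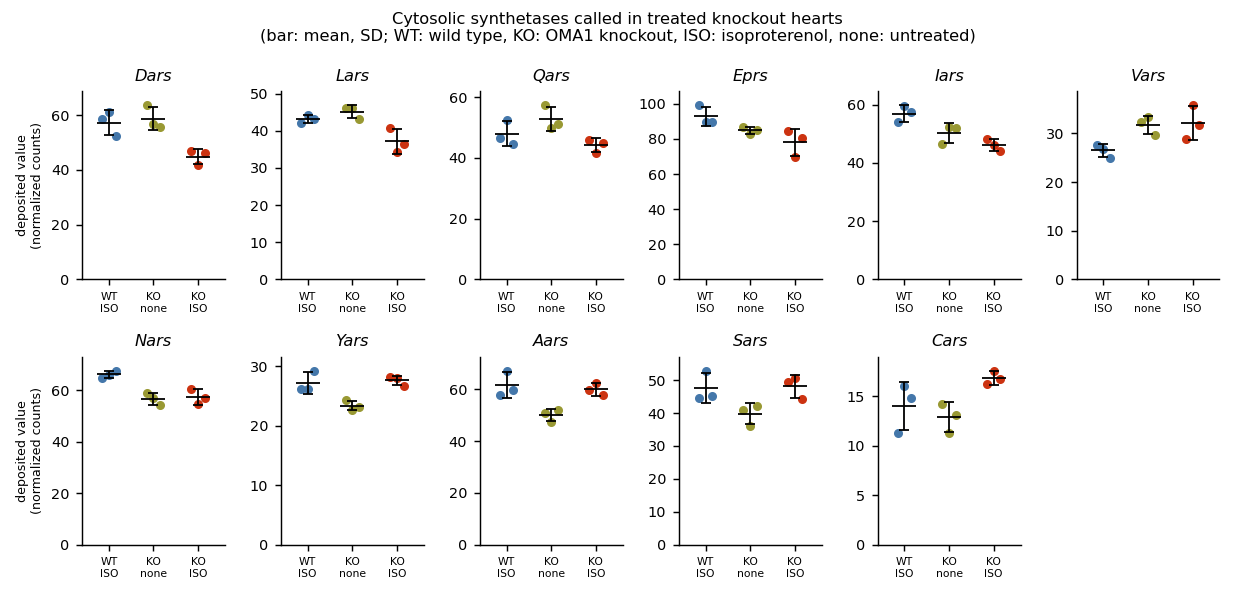
Deposited normalized count (vertical axes, starting at 0) of the 11 cytosolic synthetases called in a comparison that involves treated knockout hearts, in each library (points), with group mean and SD as bars. From left to right the genes run from the largest fall between the knockout groups, Dars at -0.38, to the largest rise, Cars at 0.37.

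For 11 amino acids both the cytosolic and the mitochondrial enzyme had their own tested gene, and a scaling factor shifts both genes of such a pair alike. In treated against untreated knockout hearts the mitochondrial gene had the lower log2 difference in 9 of the 11 pairs, with a median gap of -0.30. The widest gap was that of the methionyl enzymes, -1.03, where Mars differed by 0.10 and Mars2 by -0.93. Mars2 and Nars2 reached the minimum in none of the treated knockout libraries, so their pairs entered through groups in which the mitochondrial gene was high. In the fit with no minimum, Mars2 and Nars2 differed by -0.93 and -0.38. The alanyl pair was -0.54 apart and the cysteinyl pair -0.51, each with a cytosolic gene that rose. The leucyl and arginyl pairs ran the other way, by 0.07 and 0.02. The pairs for serine and tryptophan were left out because Sars2 and Wars2 were not tested. With no minimum these genes differed by -0.04 and -0.14, beside 0.27 for Sars and 0.11 for Wars. Proline, glutamate and phenylalanine were left out because their cytosolic genes have other symbols. These are Eprs for proline and glutamate, and Farsa and Farsb for phenylalanine. No test of the pair differences was made.

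**Figure D3:**
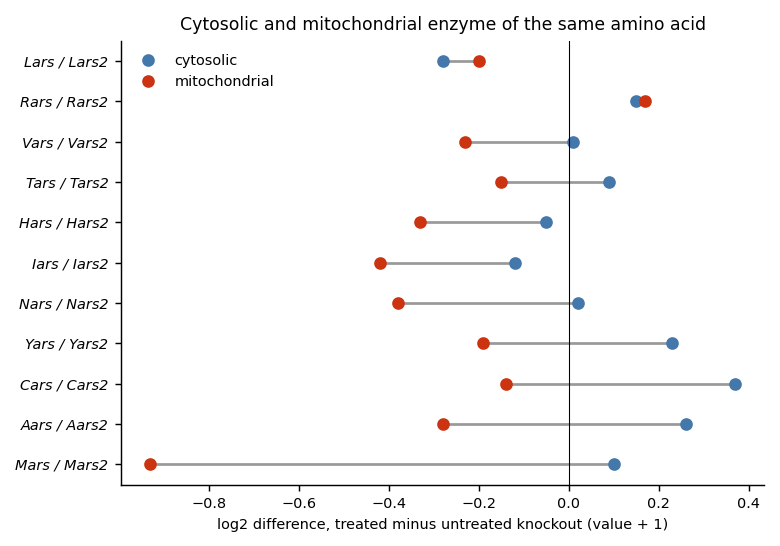
Log2 difference between treated and untreated knockout hearts (horizontal axis, value + 1) for the cytosolic (blue) and the mitochondrial gene (red) of 11 amino acids, each pair joined by a line. The red point lies to the left in 9 of the 11 pairs and farthest in the methionyl pair, at -0.93 against 0.10. Mars2 and Nars2 reached the minimum for testing in none of the treated knockout libraries.

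Summed over its members, the mitochondrial class reached 522 ± 29.7 (SD, n = 3) in untreated and 425 ± 22.6 in treated knockout hearts, and 449 ± 34.4 in treated wild-type hearts. The untreated values, 489 to 546, lay above all 6 treated values, 402 to 469. Without Lars2, left out after its spread had been seen, the untreated libraries held 377 to 398, the treated knockout libraries 289 to 329 and the treated wild-type libraries 303 to 348. The cytosolic sums overlapped between the knockout groups, at 824 ± 18.4 untreated and 810 ± 11.6 treated, with 859 ± 37.8 in treated wild-type hearts. The ratio of the cytosolic to the mitochondrial sum was 1.73, 1.53 and 1.49 in untreated knockout hearts, below the 1.84, 1.88 and 2.003 of treated knockout and the 1.81, 1.92 and 2.02 of treated wild-type hearts.

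Cell type markers differed along with these sums, and in bulk tissue fewer cells of a type and less RNA per cell cannot be told apart. The 7 atrial myocyte markers summed to 1200 to 2681 in untreated and 102 to 134 in treated knockout hearts. All 7 were lower, by log2 differences of -2.22 to -7.28. In each of the 6 treated libraries, 2 of the 7 were at 0, and in each untreated library 0 were. Bmp10, Myl7 and Sln are the markers at 0 in at least 1 library. Whether the groups differed in the dissection of atria was not tested. The 10 cardiomyocyte markers summed to 51795 to 55442 against 42929 to 46927, with 3 of 10 called lower and 0 higher. Beside this and the other marker counts, 27.4% of all genes tested were lower and 23.9% higher. The cardiomyocyte count lies near that share. The 10 endothelial markers summed to 855 to 930 against 1414 to 1699 and all 10 were higher, and 7 of the 9 tested fibroblast markers were higher, with sums of 2091 to 2195 against 2906 to 3031. The summed level of the 10 dividing cell markers went from 14.4 to 20.4 up to 124 to 235. All 6 tested were higher, but they had reached the minimum only through treated libraries, where they were high. Their count was therefore largely fixed by the filter. The part of the cell type markers in the synthetase differences was not tested.

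**Figure D4:**
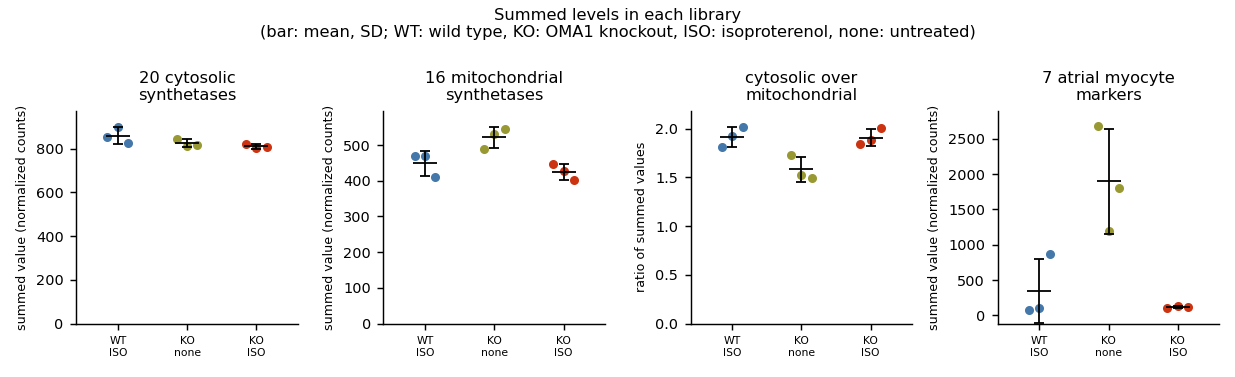
Summed deposited values of the 20 cytosolic synthetases, the 16 mitochondrial synthetases and 7 atrial myocyte markers, and the ratio of the first to the second sum, in each library (points) with group mean and SD as bars. The mitochondrial sum of untreated knockout hearts (489 to 546) lies above that of all 6 treated libraries, while the atrial sum spans 1200 to 2681 there and 68.1 to 871 in treated wild-type hearts.

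The comparison of knockout with wild-type hearts, both treated, asks what the loss of OMA1 changes under the same load. Fewer synthetases were called: among 20 cytosolic genes 1 was higher and 4 were lower, and among 13 mitochondrial genes 2 were lower and 0 higher. The background was 27.8% called over all genes, 12% higher and 15.9% lower. The falls again included complex members, with Dars, Iars and Eprs called among the 8 and a median of -0.16 for the complex. The mitochondrial median was -0.09, beside -0.01 over all tested genes. The comparison shares its treated knockout libraries with the one above, so the calls of both are not independent. The groups did not overlap for 3 mitochondrial and 6 cytosolic genes that were lower and for 1 and 3 that were higher (23.6% of all genes lower, 20% higher). Mars2 and Nars2, which entered the fit through groups in which they were high, are among the 3. With no minimum, Dars, Iars, Eprs and Iars2 were called lower and 0 members higher, beside 9.29% of all genes lower. Cell markers moved here too: 8 of 10 endothelial markers were higher and 0 lower, with sums of 1181 to 1266 in treated wild-type and 1414 to 1699 in treated knockout hearts. Of 9 tested fibroblast markers 2 were higher and 0 lower, with sums of 2595 to 4765 in treated wild-type and 2906 to 3031 in treated knockout hearts. Of 10 cardiomyocyte markers 2 were higher and 3 lower, and 0 of 7 atrial and 0 of 6 tested dividing cell markers were called. Their part in the result was not tested.

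Dars stood at 58.4, 61.1 and 52.2 in treated wild-type hearts, above all 3 treated knockout values (46.9, 41.6 and 46.0), and was lower in the knockout by -0.34 ± 0.08 (adjusted p = 0.01). Iars (chromosome 13, 49682100 to 49734267), the isoleucyl enzyme of the complex, read 53.9, 59.5 and 57.5 against 48.2, 46.2 and 44.2 and was lower by -0.30 ± 0.08 (adjusted p = 0.013). The annotated transcript Gm4849, not analysed here, is 96.0% identical to it over 1656 bases, so reads may be split between them. Eprs (chromosome 1, 185363044 to 185428360), which joins the glutamyl and prolyl enzymes in one chain, read 99.1, 89.7 and 89.8 against 84.4, 69.5 and 80.6 and was lower by -0.25 ± 0.08 (adjusted p = 0.036). None of these 3 genes had overlapping groups.

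Nars, the cytosolic asparaginyl enzyme, stood at 64.9, 66.2 and 67.8 in treated wild-type and 60.6, 54.6 and 57.1 in treated knockout hearts, lower by -0.20 ± 0.07 (adjusted p = 0.044). Its mitochondrial counterpart Nars2 read 12.6, 12.9 and 12.5 against 9.22, 8.44 and 9.98 and was lower by -0.42 ± 0.15 (adjusted p = 0.046). Both had groups that did not overlap. Iars2 was lower by -0.24 ± 0.07 (adjusted p = 0.021), again without overlap. Mars2, at -0.34 ± 0.12 (adjusted p = 0.054), did not pass although its groups did not overlap.

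Vars (chromosome 17, 35000987 to 35016322), the valyl enzyme, was the 1 gene called higher, at 27.7, 26.7 and 25.0 in treated wild-type and 28.8, 35.7 and 31.6 in treated knockout hearts, without overlap, a difference of 0.26 ± 0.09 (adjusted p = 0.043). Aars, Sars and Yars, which rose between the knockout groups, differed here by -0.04, 0.02 and 0.02, with 95% intervals of -0.21 to 0.13, -0.18 to 0.21 and -0.14 to 0.19. Cars, which also rose there, differed here by 0.26 ± 0.13 without overlap of the groups and did not pass (adjusted p = 0.13). Only the calls of Dars and Iars held without each library. The cytosolic count fell from 5 to 2 without replicate 1 or 2 of the treated wild-type or untreated knockout hearts or replicate 2 of the treated knockout hearts, and to 3 without treated knockout replicate 3. The mitochondrial count fell to 0 without treated wild-type replicate 1 or treated knockout replicate 2, and to 1 without treated wild-type replicate 2 or 3, untreated knockout replicate 2 or treated knockout replicate 1 or 3. Over all genes, fits without 1 library called 6.32% to 11.6% higher and 9.5% to 16.6% lower, against 12% and 15.9% with all 9. After a correction for transcript length and GC content, 1 cytosolic and 0 mitochondrial genes were called, the 1 being Dars. Over all genes that correction left 8.28% higher and 10.2% lower.

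**Figure D5:**
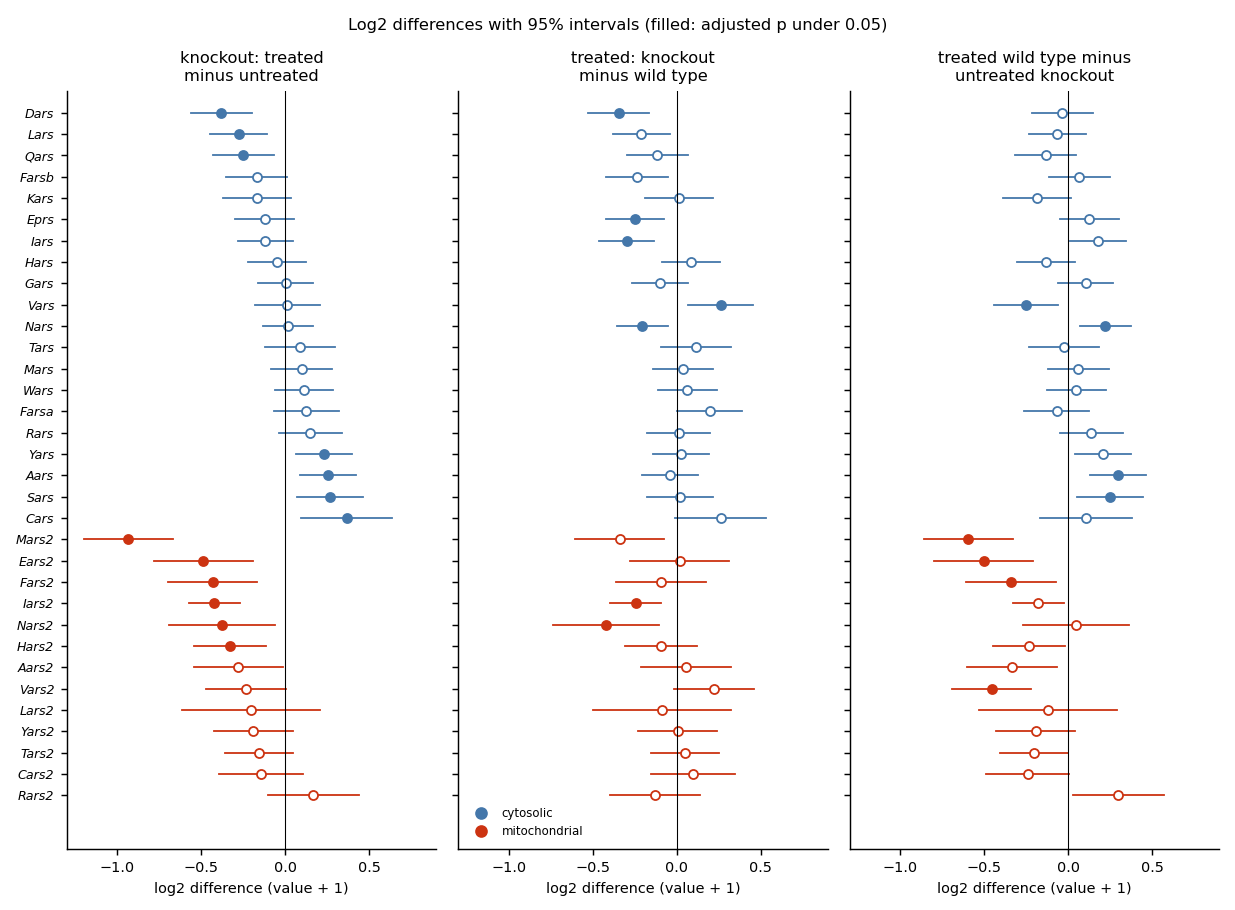
Log2 difference (horizontal axis, value + 1) with its 95% interval for the 33 tested synthetases, cytosolic in blue and mitochondrial in red, in the 3 comparisons; filled points have an adjusted p under 0.05. In treated against untreated knockout hearts 12 of the 13 mitochondrial points lie left of 0, while the cytosolic points run from -0.38 to 0.37.

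Treated wild-type and untreated knockout hearts differ in genotype and treatment together, which cannot be told apart. Against the untreated knockout hearts, Mars2 was lower by -0.59 ± 0.12 (adjusted p = 0.0026), Ears2 by -0.50 ± 0.14 (adjusted p = 0.013), Vars2 by -0.46 ± 0.11 (adjusted p = 0.0065) and Fars2 by -0.34 ± 0.12 (adjusted p = 0.049). These 4 made up the mitochondrial calls among 13 tested, with 0 higher, against 33.2% of all genes called (16.9% lower and 16.4% higher). With no minimum, Mars2, Ears2 and Vars2 were called among the 16, beside 12.9% of all genes lower. The groups did not overlap for 6 of the 13 that were lower and 1 that was higher (24.1% of all genes lower, 23.4% higher). Mars2 and Ears2, which entered the fit through groups in which they were high, are among the 6. Of the untested genes, Wars2 was lower without overlap, and Pars2 and Sars2 overlapped. In the same comparison all 7 atrial markers were lower, while 8 of the 9 tested fibroblast markers (1 was lower) and 6 of 10 endothelial markers were higher. All 6 tested dividing cell markers were higher too, but they had reached the minimum only through treated libraries. The part of these markers in the result was not tested. Vars2 stood at 19.5, 17.3 and 14.3 in treated wild-type and 26.6, 21.9 and 22.5 in untreated knockout hearts, without overlap. Its exons share 465 bases with Gm20483 on the opposite strand, and whether reads were counted by strand is not given. Nrn1, which shares exon bases with Fars2 on the opposite strand, was also lower here, by -0.51 ± 0.16 (limma, adjusted p = 0.025). Of the cytosolic genes, Aars at 0.30 ± 0.08 (adjusted p = 0.01), Nars at 0.22 ± 0.07 (0.027) and Sars at 0.25 ± 0.09 (0.049) were higher and Vars was lower at -0.25 ± 0.09 (0.046).

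In the pairs by amino acid, the mitochondrial gene had the lower difference in 10 of 11 here and in 8 of 11 in the comparison of the treated groups, with median gaps of -0.20 and -0.07. Mars2 and Nars2, which entered the fit through groups in which they were high, are among these pairs too. The 3 comparisons share libraries, so these counts do not add to one another. Treated wild-type replicate 3, whose atrial markers summed to 871 against 68.1 and 103 in its group, held the lowest value of its group in 10 of the 13 tested mitochondrial genes. Its fibroblast markers summed to 4765 against 2595 and 2762 in its group, and its cardiomyocyte markers to 42368 against 51144 and 48362. The part of that library in the result was not tested. The mitochondrial count went from 4 to 2 without untreated knockout replicate 1 or 2. In those fits Fars2 lost its call, while Ears2 was below the minimum and was not tested. The cytosolic count went from 4 to 0 without untreated knockout replicate 2. It went to 2 without replicate 2 or 3 of the treated wild-type, replicate 1 or 3 of the untreated knockout or replicate 3 of the treated knockout hearts.

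Genes that work beside the synthetases were read from a list of 11, of which 10 were in the table and 6 were tested. In treated against untreated knockout hearts 3 of the 6 were lower and 0 were higher, beside 27.4% and 23.9% of all genes. Gatc, a subunit of the mitochondrial glutamyl-tRNA amidotransferase that acts after Ears2, fell by -0.36 ± 0.11 (adjusted p = 0.015). Tarsl2, a threonyl enzyme-like protein, fell by -0.63 ± 0.11 (adjusted p = 0.00035), and Aarsd1, an editing factor for mischarged alanine tRNA, by -0.54 ± 0.20 (adjusted p = 0.038). Aimp1, a scaffold of the multi-synthetase complex, did not pass at 0.13 ± 0.09.

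Downstream of charging, 6 of the 8 tested mitochondrial translation factors fell between the knockout groups and 0 rose, beside 27.4% of all genes lower and 23.9% higher. They included Mrrf, the ribosome recycling factor, at -0.50 ± 0.09 (adjusted p = 0.0004), Gfm1, elongation factor G, at -0.43 ± 0.08 (0.00079), Gfm2 at -0.43 ± 0.10 (0.0033) and Tufm, elongation factor Tu, at -0.32 ± 0.09 (0.012). Of the 7 cytosolic elongation factors 1 rose and 3 fell, against the same background. Eef1a1 rose by 0.51 ± 0.10 (adjusted p = 0.00065), while Eef1a2, the form typical of adult muscle, fell by -0.62 ± 0.08 (adjusted p = 4.1e-05).

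Atf4 itself stood at 45.4, 49.3 and 44.1 in untreated and 73.8, 75.5 and 66.6 in treated knockout hearts and rose by 0.63 ± 0.07 (adjusted p = 2.1e-05). Treated wild-type hearts held 61.2, 62.1 and 61.8, so the 3 groups did not overlap, and Atf4 was higher in treated knockout than in treated wild-type hearts by 0.22 ± 0.07 (adjusted p = 0.045). Of the 13 tested genes of the ATF4 and amino acid response list, 6 were higher and 4 lower between the knockout groups, where 23.9% of all genes were higher and 27.4% lower. Among them were Atf5 at 0.80 ± 0.09 (adjusted p = 1.1e-05) and Vldlr at -0.83 ± 0.11 (adjusted p = 3.6e-05). Asns, which makes asparagine and is a classical ATF4 target, was below the minimum at 1.23 to 5.32 and was not tested.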

How the data were processed

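RNA from mouse hearts was sequenced from 9 TruSeq libraries, per the labels' protocols. The submitters' processing notes name cutadapt, RSEM 1.17, limma and the build GRCm38; no aligner, strand setting or gene filter is given in the sources used here. Deposited values are a signal that the authors made by scaling expected counts to library size, 1 value per gene and library. Dividing by the step of each library returned whole reads for 100% of the values examined, within 0.02 reads, which gave the depths. A total of 232 rows without a gene symbol were kept as genes by ID.

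On the log2(value + 1) scale, the 8543 genes that reached 10 in 3 or more of the 9 samples were fitted with limma 3.58.1 (R 4.3.3), with 1 mean per group, a trend in the variance and two-sided tests. Alternatives changed the pseudocount (0.25 or 10), the filter (none or 20), the scaling, the samples, a replicate block and a correction for length and GC content, used edgeR 4.0.16 and DESeq2 1.42.0 on the recovered reads, or left out each library. The fit was tested on simulated data. Transcript lengths and gene positions came from GENCODE M21 on GRCm38, with the longest APPRIS principal transcript for each gene.

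The 36 members, gene lists and naming rule were chosen with earlier results of these data known. Members called in a comparison of treated knockout hearts are named with every value, and of each other list up to 4 genes with the smallest p, plus Atf4 and Asns. Some results are not reported here.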

Additional observations from a re-analysis of the deposited data

How the results depend on the processing

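Of 28 calls of single synthetases, 12 were kept under every alternative setting in which the gene was tested, and 0 of 603 recomputed values reversed. Of those 12, 8 were also kept in every fit without 1 library that tested the gene. For Ears2 these were only the 6 of 9 fits that left out a treated library, so its call was not tested without an untreated one. For knockout against wild-type hearts, both treated, the 5 cytosolic calls became 3 with no filter, with scaling on nuclear genes or with cyclic loess, 2 with the 2 groups alone or DESeq2, and 1 after the length and GC correction, with or without the replicate block. The 2 mitochondrial calls became 1 with a pseudocount of 10, no filter, a minimum of 20, nuclear scaling, the 2 groups alone, the replicate block or DESeq2, and 0 after the length and GC correction, with or without the block. Nars2 never reached 20 and was not tested at that minimum. Over all genes 12% were higher and 15.9% lower in the main fit of the treated groups. These shares were 12.1% and 15.7% with pseudocount 10, 7.78% and 9.29% with no filter and 13.9% and 20.6% with a minimum of 20. Nuclear scaling gave 16.3% and 12.5%, and cyclic loess 13.6% and 14.1%. The 2 groups alone gave 9.25% and 11.8%, and DESeq2 11.5% and 12.3%. After the length and GC correction they were 8.28% and 10.2%, and with the block added 7.48% and 8.78%. Between the knockout groups, the 6 mitochondrial calls became 3 with a minimum of 20, and the 7 cytosolic calls stayed at 5 to 9. Ears2, Mars2, Nars2 and Cars never reached 20, so they were not tested at that minimum. With that minimum 25.2% of all genes were higher and 32.4% lower. Across the alternative settings 21% to 33.2% of all genes were higher and 19.5% to 32.4% lower. In the third comparison, treated wild-type against untreated knockout, the 4 cytosolic calls became 2 with no filter and 1 with DESeq2 or the replicate block with the length and GC correction. The 4 mitochondrial calls became 2 with a minimum of 20, at which Ears2 and Mars2 were not tested. Over all genes, 13.7% were higher and 12.9% lower with no filter, and 13.6% and 14.1% with DESeq2. The shares were 14.5% and 14% with the block and the correction, and 18.6% and 19.2% with a minimum of 20. Leaving out 1 library at a time gave 2 to 6 cytosolic and 0 to 2 mitochondrial calls in the treated groups, 3 to 7 and 4 to 8 between the knockout groups, and 0 to 4 and 2 to 6 in the third comparison. Over all genes, these fits called 6.32% to 11.6% higher and 9.5% to 16.6% lower in the treated groups. The shares were 19.7% to 25.1% and 22.2% to 29.2% between the knockout groups, and 12.3% to 17.6% and 10.9% to 18.9% in the third comparison. With fewer genes or samples in the fit some losses follow from the setting; the cause of the others was not tested. Same-numbered libraries deviated together with correlations of -0.14 to 0.18, beside -0.25 to 0.23 for libraries of different number. Whether same-numbered libraries share more than a number is not given by the labels and was not tested. With the replicate number as a block the calls between the knockout groups were 7 cytosolic and 6 mitochondrial, as without it. In the treated groups they were 4 and 1, and in the third comparison 3 and 5. Over all genes, that block gave 23.6% higher and 27% lower between the knockout groups. The shares were 11.8% and 14.6% in the treated groups, and 16% and 16.2% in the third comparison. Depth limits Pars2, Wars2 and Sars2 most, at 31 to 97 reads per library, which covers counting error only.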

Other observations

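Wars, the cytosolic tryptophanyl enzyme and a well-known interferon-induced gene, stood at 34.3, 34.1 and 36.8 in untreated and 36.4, 37.2 and 40.3 in treated knockout hearts. The groups overlapped, and its difference of 0.11 ± 0.08 did not pass (limma, adjusted p = 0.27; 95% interval -0.06 to 0.29). Of the 15 tested interferon-stimulated genes, 12 were higher in the same comparison and 0 were lower, among them Ifit3, an antiviral protein, at 0.89 ± 0.12 (adjusted p = 4.3e-05) and Ifit2, of the same family, at 0.84 ± 0.13 (adjusted p = 0.00015). Over all genes tested, 23.9% were higher.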
